A study of Mus musculus with 8 samples.

Results

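Interferon-stimulated genes are the genes that a cell switches on when it senses a virus or receives an interferon. The 42 listed here are the sensors of foreign RNA and DNA, the transcription factors of the response, the antiviral effectors and the parts of antigen presentation that the response raises. They were chosen by name, and each was read from the brightest probe set annotated to it alone. Of the 42, 39 had such a probe set and 37 of these passed the filter on dim genes, out of 19938 genes measured and 13205 tested on the arrays. Mx1 and Mx2 lay below the filter. Isg15 and Gbp2 share their probe sets with another gene (Gm9706 and Gbp2b), and no probe set carried the name of Ifi44, so these 3 have no value here.

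Type I interferons bind the receptor IFNAR1/IFNAR2 and act through the kinases JAK1 and TYK2. STAT2 and IRF9 are subunits of the complex ISGF3, which binds a DNA element called ISRE in front of the induced genes, while the response to interferon gamma runs mainly through another element, GAS. Several members, among them STAT2, IRF9, IRF7 and the RNA sensors, are themselves parts of this loop, and many cells, stromal cells of the marrow included, keep a low level of it without infection.

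Expression was read on single-colour arrays in bone marrow stromal cells, which stick to the dish and give rise to bone, cartilage and fat. The cells came from C57BL/6 mice of 6 to 8 weeks, flushed from femurs and tibiae, and were cultured on Skelite, a scaffold of calcium phosphate. The medium was either growth medium or an osteoinductive one. Each medium was measured in 4 conditions, with 1 array each: microgravity in flight, a 1g centrifuge in flight inside the same type of incubator, units of the same kind kept on the ground, and laboratory culture dishes. No genotype, allele or agent other than the medium separates the groups, and what the osteoinductive medium contained is not stated in the labels. The flight units were automated and the ground units were worked by hand, so flight cannot be told apart from that difference in hardware. The centrifuge samples carry a gravity label of microgravity although their titles and descriptions name the 1g centrifuge. One line on the osteoinductive centrifuge sample speaks of growth medium. Titles decided the groups.

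Because each medium and condition has 1 array, repeats came from the other factor. Flight (microgravity and centrifuge) was compared with the ground-based arrays (ground units and laboratory) in a fit with medium as a term, 4 arrays against 4, and osteoinductive with growth medium in a fit with condition as a term. The labels do not say whether any 2 arrays stem from separate cultures or mice. The p-values, all from limma with Benjamini-Hochberg adjustment over the 13205 tested genes, therefore measure the spread between these arrays alone, and that spread may be technical. A gene is called where its adjusted p lies under 0.05. Values are log2 intensities, and differences are log2 differences. Median intensity per array lay between 181 and 196. The stromal markers Col1a1, Col1a2, Col3a1, Pdgfra, Pdgfrb, Thy1, Vim, Cxcl12 and Sparc were all above the filter, with a summed intensity of 28289 to 33557 in flight and 34275 to 38482 on the ground-based arrays. Of 14 macrophage markers, 5 lay under the filter level on every array.

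The RefSeq promoter table of build GRCm38.p6 held 33 of the 42 members. In the 250 bases before their starts, an ISRE core (GAAANNGAAA, or TTTCNNTTTC on the other strand) was found in 15 of the 33, or 45.5%, against 936 of the 27025 genes of the table, or 3.46%. The GAS element (TTCNNNGAA, the same on both strands) was found in 6 members, or 18.2%, against 8.13% of all genes. ISRE cores can overlap each other, as in Bst2 and Gbp3, and in Bst2 a GAS shares 3 bases with an ISRE core. A match is a description of these letters and no evidence of binding. The windows below are shown because, of the tested members with a core here, their genes fell most with the osteoinductive medium (Ifit1, Ifit3, Ifit3b, Rsad2, Ddx60, Gbp3), because Bst2 holds both elements, and because B2m and Ifi207 hold the same core and were called in neither comparison. Oas1a also holds both elements, and Oas3 also holds a core and was called in neither comparison, but their windows are not shown. The windows shown run 5′ to 3′ along the gene, capitals mark the ISRE cores, and up to 20 bases flank them.
Ifit1: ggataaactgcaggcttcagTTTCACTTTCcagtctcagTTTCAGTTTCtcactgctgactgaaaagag
Ifit3: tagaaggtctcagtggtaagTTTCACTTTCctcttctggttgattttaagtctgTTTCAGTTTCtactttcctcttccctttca
Ifit3b: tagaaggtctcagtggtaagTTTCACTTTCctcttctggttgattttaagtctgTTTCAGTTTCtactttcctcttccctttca
Rsad2: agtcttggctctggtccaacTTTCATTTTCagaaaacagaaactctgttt
Ddx60: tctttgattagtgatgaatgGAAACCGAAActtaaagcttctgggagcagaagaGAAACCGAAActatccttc
Gbp3: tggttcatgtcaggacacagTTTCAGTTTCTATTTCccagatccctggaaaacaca
Bst2: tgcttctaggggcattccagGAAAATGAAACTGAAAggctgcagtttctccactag
B2m: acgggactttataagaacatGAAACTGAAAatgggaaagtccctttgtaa
Ifi207: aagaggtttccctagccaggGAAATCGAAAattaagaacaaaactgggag
The windows lie at chr19:34640765-34640833 (plus strand) for Ifit1, chr19:34583353-34583436 (plus strand) for Ifit3, chr19:34607749-34607832 (plus strand) for Ifit3b and chr12:26456543-26456592 (minus strand) for Rsad2. Those of Ddx60, Gbp3 and Bst2 lie at chr8:61928014-61928086 (plus strand), chr3:142559979-142560034 (plus strand) and chr8:71537567-71537622 (minus strand). B2m has its window at chr2:122147528-122147577 (plus strand) and Ifi207 at chr1:173741821-173741870 (minus strand). The Ifit3 and Ifit3b windows, 2 neighbouring copies on chromosome 19, were identical at 84 of 84 bases.

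The members were highest on the growth arrays that did not fly and lowest on the osteoinductive arrays that did. Each member's log2 intensity was set against its own mean over the 8 arrays. The median of the 37 tested members was then 0.51 in growth laboratory, 0.44 in growth ground, 0.39 in growth centrifuge and -0.09 in growth microgravity. In osteoinductive medium it was 0.03 in laboratory, 0.06 in ground, -0.62 in centrifuge and -0.68 in microgravity. The same median over all 13205 tested genes stayed between -0.07 and 0.06. Of the 37 members, 18 had their lowest value on osteoinductive microgravity and 16 on osteoinductive centrifuge, and the other 3 on growth microgravity.

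**Figure D1:**
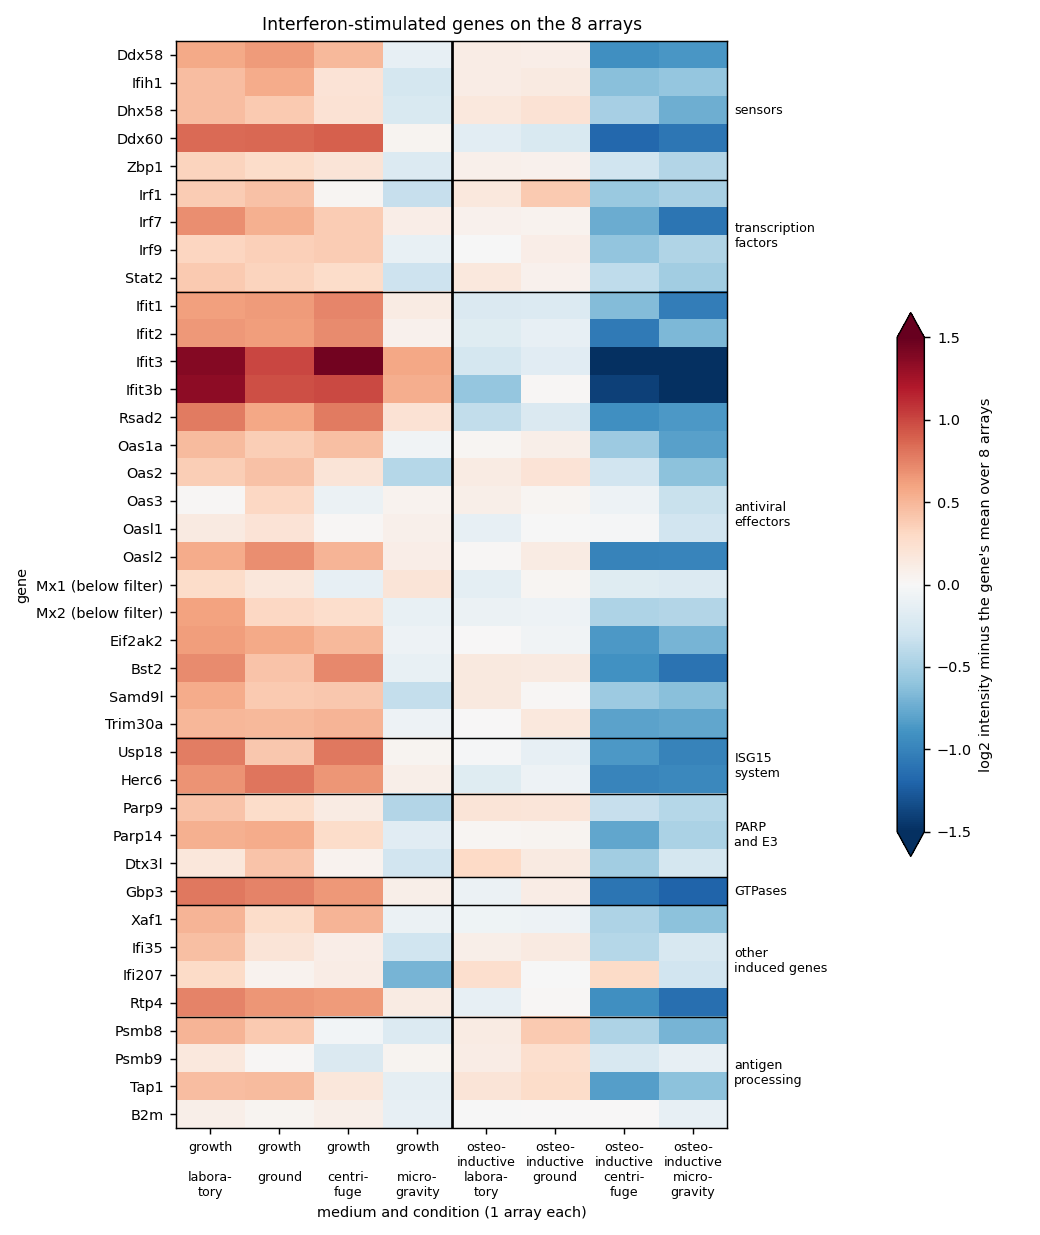
Log2 intensity of the 39 measured members (rows, grouped by role) on the 8 arrays (columns), each minus the gene's own mean, with colours beyond 1.5 in either direction capped. The growth arrays other than microgravity are red for nearly all rows and the osteoinductive flight arrays blue for most. B2m, Oas3, Oasl1, Psmb9 and Mx1 are pale throughout, and Ifi207 lies above its mean on osteoinductive centrifuge (0.28).

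**Figure D2:**
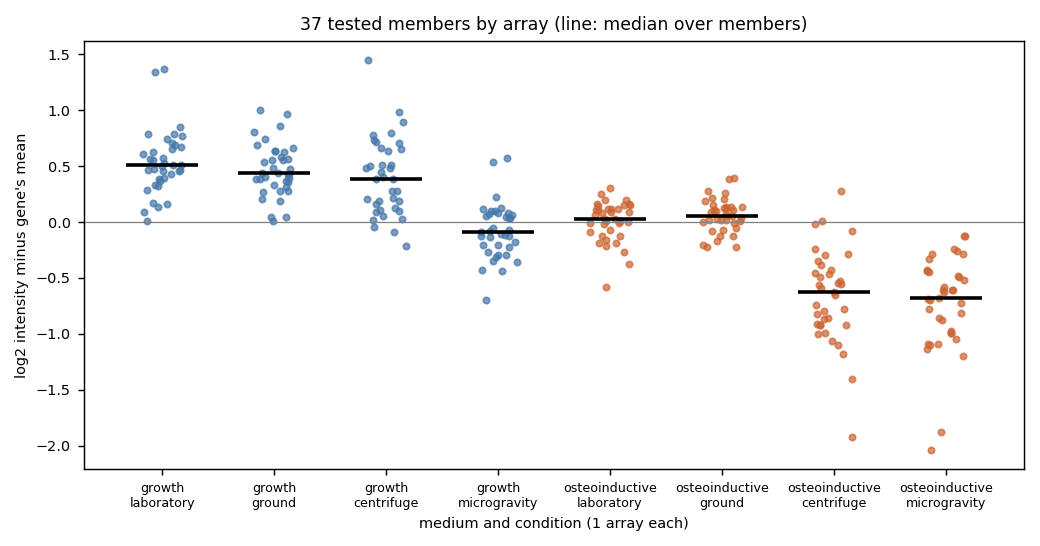
Each point is 1 of the 37 tested members on 1 array, as log2 intensity minus that gene's mean over the 8 arrays, and the line is the median over members. The medians run from 0.51 in growth laboratory to -0.68 in osteoinductive microgravity, and growth microgravity lies at -0.09.

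In flight, 32 of 37 tested members were called lower than on the ground-based arrays and 0 higher, with a median log2 difference of -0.57. Over all tested genes 25.7% were called lower and 12.7% higher, with a median of -0.09, and among the 5010 genes with a mean log2 intensity between 8.14 and 9.43, the interquartile range of the members, 32.5% were lower, with a median of -0.15. All 37 members were below 0, as were 8306 of the 13205 tested genes. The 5 not called were Oas3, Oasl1, Xaf1, Ifi207 and B2m. The count was 25 to 33 with any 1 array left out, and 9 without the term for medium.

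Markers of other tissues were higher on the same flight arrays, where 12.7% of all tested genes were called higher and 25.7% lower. All 7 of 7 neuronal markers tested were called higher, with a summed intensity of 9425 to 13718 in flight against 2398 to 3427. All 6 of 6 tested skeletal muscle markers were higher (5045 to 6464 against 1585 to 1762), with Myog of the 7 listed below the filter. Of 7 lung epithelium markers, 5 were tested and 2 called higher (1756 to 11753 against 925 to 1025, highest on osteoinductive microgravity, with Scgb1a1 and Epcam below the filter), and all 5 of 5 tested endothelial markers were higher (1155 to 2268 against 871 to 904, with Tek and Emcn below the filter). Macrophage markers, of cells rich in the interferon system, summed to 2004 to 2788 in flight and 1938 to 2206 otherwise, with 1 of 6 tested called lower and Ptprc, Adgre1, Itgam, Mrc1, Aif1, Fcer1g, Cd163 and Mpeg1 below the filter. Stromal markers, with 4 of 9 called lower and 7 of 9 below 0, did not overlap in their sums between the sides. Such sums weigh the brightest markers most. Of all single tested genes 16.2% had all 4 flight arrays below all 4 ground-based arrays. The part of these marker shifts in the interferon result was not tested. In such bulk RNA, fewer cells of a type and less RNA per cell cannot be told apart.

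With osteoinductive medium, 28 of 37 members were called lower than in growth medium and 0 higher, with a median log2 difference of -0.60. Over all tested genes 8.13% were called lower and 6.42% higher, with a median of -0.02. The count was 22 to 25 with any 1 array left out. The members not called were Oasl1, Irf1, Ifi35, Parp9, Dtx3l, Oas3, Ifi207, B2m and Psmb9. On the same arrays 10 of 11 tested glucocorticoid targets were called higher with osteoinductive medium (median log2 1.13), among them Fkbp5 by 2.38, Tsc22d3 by 1.66 and Mt2 by 1.55, with Pdk4 below the filter. Glucocorticoids are a usual part of osteoinductive media and act against inflammation, and their part in this result was not tested. Macrophage markers summed to 2127 to 2221 in growth medium and 1938 to 2788 in osteoinductive medium, with 2 of 6 tested (Csf1r and Cd14) called lower. Of 7 neuronal markers 3 were called lower (summed intensity 3037 to 13718 in growth and 2398 to 10054 in osteoinductive medium), and of 9 stromal markers 2 were called higher (28289 to 36125 and 32287 to 38482). The other marker lists had no tested gene called with medium. The part of these lists in the result was not tested either.

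**Figure D3:**
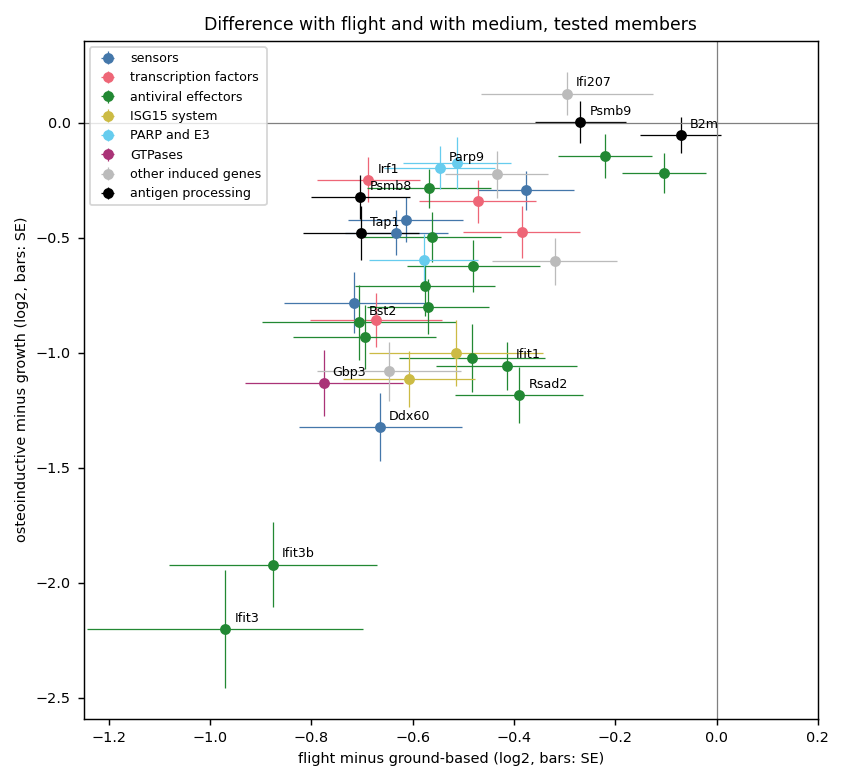
Log2 difference of each tested member with flight (x axis) and with osteoinductive medium (y axis), with SE bars and colours for roles. Ifit3 and Ifit3b lie lowest at -2.20 and -1.92 with medium and farthest left at -0.97 and -0.88 with flight. The antigen processing genes Psmb8 and Tap1 lie at -0.70 with flight and at -0.32 and -0.48 with medium. B2m lies near 0 on both axes.

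The RNA and DNA sensors were called lower in both comparisons, 5 of 5 in flight (median -0.63) and 5 of 5 with osteoinductive medium (median -0.48). All tested genes had shares of 25.7% and 8.13% called lower. Each role group here and below is small, so its count is a description. In each list of 4 values that follows the order is laboratory, ground, centrifuge and microgravity. Ddx58 read 10.54, 10.60, 10.45 and 9.84 in growth medium and 10.08, 10.07, 9.05 and 9.09 in osteoinductive medium. Ddx58 encodes RIG-I, the sensor of viral RNA ends, and its osteoinductive flight arrays lay below every other array. Flight gave -0.72 (SE 0.14, adjusted p = 0.00204) and osteoinductive medium gave -0.78 (SE 0.13, adjusted p = 0.00208). Ifih1 read 8.61, 8.70, 8.35 and 7.88 in growth medium and 8.25, 8.28, 7.52 and 7.56 in osteoinductive medium. Ifih1 encodes MDA5, the sensor of long double-stranded RNA, and in each medium both flight arrays lay below both ground-based ones. The fit gave -0.63 (SE 0.10, adjusted p = 0.000558) in flight and -0.48 (SE 0.10, adjusted p = 0.00644) with osteoinductive medium.

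Dhx58 read 8.10, 8.03, 7.86 and 7.41 in growth medium and 7.80, 7.85, 7.14 and 6.91 in osteoinductive medium. Dhx58 encodes LGP2, which tunes the other RNA sensors, and again the flight arrays lay below the ground-based arrays within each medium. It differed by -0.61 (SE 0.11, adjusted p = 0.00147) in flight and by -0.42 (SE 0.10, adjusted p = 0.0126) with osteoinductive medium, the latter call being lost without either centrifuge or either microgravity array (-0.40 to -0.33). Ddx60 read 9.43, 9.44, 9.47 and 8.62 in growth medium and 8.42, 8.35, 7.40 and 7.49 in osteoinductive medium. Ddx60, a helicase that aids RNA sensing, was higher on all 4 growth arrays than on any osteoinductive array, and growth microgravity was the low one among the growth arrays. The log2 difference was -0.66 (SE 0.16, adjusted p = 0.00723) in flight and -1.32 (SE 0.15, adjusted p = 9.68e-05) with osteoinductive medium. Zbp1, the sensor of Z-form nucleic acid, was -0.38 in flight and -0.29 with osteoinductive medium (adjusted p = 0.00889 and 0.0372).

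All 4 transcription factors were called lower in flight (median -0.57), and 3 of 4 with osteoinductive medium, against 25.7% and 8.13% of all tested genes. Irf1 read 9.02, 9.08, 8.66 and 8.29 in growth medium and 8.79, 9.03, 8.08 and 8.15 in osteoinductive medium. Irf1, the interferon regulatory factor that drives antigen presentation genes, was lower on all 4 flight arrays than on any ground-based array. The fit gave -0.69 (SE 0.10, adjusted p = 0.000279) in flight and -0.25 (SE 0.10, adjusted p = 0.117) with osteoinductive medium, so it was called in flight and not with medium. The mean of its probe sets gave -0.32 in flight in place of -0.69. Irf7 read 9.86, 9.70, 9.56 and 9.27 in growth medium and 9.23, 9.23, 8.43 and 8.08 in osteoinductive medium. Irf7, the factor that amplifies interferon alpha production, was higher on every growth array than on any osteoinductive one. It differed by -0.67 (SE 0.13, adjusted p = 0.00198) in flight and by -0.86 (SE 0.12, adjusted p = 0.00051) with osteoinductive medium.

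Stat2 read 9.80, 9.74, 9.68 and 9.09 in growth medium and 9.57, 9.47, 9.02 and 8.89 in osteoinductive medium. Stat2, a subunit of ISGF3, was lowest on osteoinductive microgravity, with growth microgravity close to osteoinductive centrifuge. Flight gave -0.47 (SE 0.12, adjusted p = 0.00761) and osteoinductive medium gave -0.34 (SE 0.09, adjusted p = 0.0302), and the medium call was lost without either array of the centrifuge, laboratory or ground condition (-0.38 to -0.24). Irf9, the DNA-binding subunit of ISGF3, was -0.38 in flight and -0.48 with osteoinductive medium (adjusted p = 0.0206 and 0.0156).

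Of the 16 antiviral effectors 14 were tested, and 12 were called lower in flight (median -0.56) and 12 with osteoinductive medium (median -0.84). For all tested genes the shares called lower were 25.7% and 8.13%. Ifit proteins bind viral RNA and block its translation, and Ifit3 and Ifit3b showed the largest medium differences of the tested members. Ifit3 read 10.80, 10.43, 10.88 and 10.01 in growth medium and 9.16, 9.26, 7.50 and 7.39 in osteoinductive medium. Ifit3 was highest on the 4 growth arrays, in between on the osteoinductive ground-based arrays and lowest on the osteoinductive flight arrays. The fit gave -0.97 (SE 0.27, adjusted p = 0.0152) in flight and -2.20 (SE 0.26, adjusted p = 0.00014) with osteoinductive medium, which is 1.96-fold and 4.60-fold lower.

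The flight call of Ifit3 was lost without osteoinductive centrifuge, microgravity or laboratory (-0.83 to -0.79), and both its calls were lost with a robust, trended variance. Ifit3b read 8.55, 8.17, 8.19 and 7.74 in growth medium and 6.62, 7.22, 5.80 and 5.33 in osteoinductive medium. Its neighbour and near copy Ifit3b kept the same order of groups, and on these arrays signals of the 2 copies may not be fully separate. Ifit3b differed by -0.88 (SE 0.20, adjusted p = 0.00606) in flight and by -1.92 (SE 0.19, adjusted p = 3.82e-05) with osteoinductive medium. Its mean of 7.20 passed the filter level of 7.14 only through the growth arrays. Its osteoinductive laboratory, centrifuge and microgravity values lay under that level, in the dim part of the range, which limits what these differences and calls show. Ifit1 read 9.83, 9.86, 9.96 and 9.35 in growth medium and 9.00, 9.02, 8.57 and 8.18 in osteoinductive medium. Ifit1 was higher on every growth array than on any osteoinductive array, while growth centrifuge was its highest array of all. It differed by -0.41 (SE 0.14, adjusted p = 0.0336) in flight and by -1.06 (SE 0.10, adjusted p = 4.14e-05) with osteoinductive medium. The flight call of Ifit1 was lost after quantile normalization (-0.31) and without any of 5 arrays (growth microgravity or any osteoinductive array, -0.45 to -0.29). Ifit2 was -0.48 and -1.02 in the same comparisons (adjusted p = 0.0202 and 0.00067).

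Rsad2 read 8.82, 8.62, 8.81 and 8.25 in growth medium and 7.66, 7.81, 7.11 and 7.17 in osteoinductive medium. Rsad2 encodes viperin, which makes a nucleotide that stops viral RNA synthesis, and it too was higher on every growth array than on any osteoinductive one. The log2 difference was -0.39 (SE 0.13, adjusted p = 0.0289) in flight and -1.19 (SE 0.12, adjusted p = 5.75e-05) with osteoinductive medium. The flight call of Rsad2 was lost without any of 6 arrays, the exceptions being growth centrifuge and growth ground (-0.39 to -0.32). Bst2 read 11.29, 11.01, 11.30 and 10.48 in growth medium and 10.73, 10.72, 9.67 and 9.48 in osteoinductive medium. Bst2 encodes tetherin, which holds budding virus at the cell surface, and its osteoinductive flight arrays lay below all 6 others. The fit gave -0.71 (SE 0.19, adjusted p = 0.013) in flight and -0.87 (SE 0.16, adjusted p = 0.00418) with osteoinductive medium. Trim30a read 10.75, 10.74, 10.75 and 10.18 in growth medium and 10.26, 10.40, 9.45 and 9.47 in osteoinductive medium. Trim30a, a TRIM family protein, was level on 3 growth arrays and low on growth microgravity, and it differed by -0.58 (SE 0.14, adjusted p = 0.00699) in flight and by -0.71 (SE 0.13, adjusted p = 0.00365) with osteoinductive medium.

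The oligoadenylate synthetase family includes the enzymes whose product activates RNase L. Of its members Oas1a, Oas2 and Oasl2 were called lower in flight (-0.48, -0.57 and -0.69, adjusted p = 0.0132, 0.00389 and 0.00269) and with osteoinductive medium (-0.62, -0.29 and -0.93, adjusted p = 0.00304, 0.0409 and 0.000879). Oas3 gave -0.22 and -0.15 (adjusted p = 0.0792 and 0.373) and Oasl1 gave -0.10 and -0.22 (adjusted p = 0.337 and 0.115), none of them called. Eif2ak2, the kinase PKR that halts translation, was -0.57 in flight and -0.80 with osteoinductive medium (adjusted p = 0.00343 and 0.000879). Samd9l, an inhibitor of poxvirus growth, was -0.56 and -0.50 (adjusted p = 0.00719 and 0.00898).

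Mx1 and Mx2, the dynamin-like antiviral GTPases, lay below the filter level of 7.14 on average. Mx1 read 6.61, 6.51, 6.22 and 6.53 in growth medium and 6.19, 6.37, 6.16 and 6.13 in osteoinductive medium. Mx2 read 7.73, 7.43, 7.40 and 7.02 in growth medium and 7.04, 7.05, 6.66 and 6.69 in osteoinductive medium. Fitted without the filter, Mx2 was -0.37 in flight and -0.53 with osteoinductive medium (adjusted p = 0.0158 and 0.00515 over all 19938 genes), and Mx1 was -0.16 and -0.25 (adjusted p = 0.209 and 0.125).

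Both measured genes of the ISG15 system, which attaches the ubiquitin-like tag ISG15 to proteins and removes it, were called lower in both comparisons. The all-gene shares called lower were 25.7% in flight and 8.13% with osteoinductive medium. Usp18 read 10.29, 9.92, 10.32 and 9.56 in growth medium and 9.51, 9.40, 8.66 and 8.53 in osteoinductive medium. Usp18 removes ISG15 and restrains the interferon receptor, and its 2 osteoinductive flight arrays were the lowest of the 8. It differed by -0.52 (SE 0.17, adjusted p = 0.0324) in flight and by -1.001 (SE 0.14, adjusted p = 0.000687) with osteoinductive medium. The flight call of Usp18 was lost after quantile normalization (-0.39) and without any of 6 arrays, the exceptions being growth centrifuge and growth ground (-0.51 to -0.42). Herc6 read 8.97, 9.10, 8.96 and 8.38 in growth medium and 8.11, 8.21, 7.30 and 7.32 in osteoinductive medium. Herc6, the ligase that attaches ISG15 in mice, was higher on every growth array than on any osteoinductive array. Flight gave -0.61 (SE 0.13, adjusted p = 0.00365) and osteoinductive medium gave -1.11 (SE 0.12, adjusted p = 8.43e-05).

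Parp14, Parp9 and Dtx3l, the ADP-ribosyltransferases and the E3 ligase that partners Parp9, were all called lower in flight (median -0.55), and Parp14 alone of them with osteoinductive medium. Beside them stand 25.7% and 8.13% of all tested genes called lower. Parp14 read 8.78, 8.80, 8.52 and 8.07 in growth medium and 8.27, 8.28, 7.46 and 7.77 in osteoinductive medium. For Parp14 the osteoinductive flight arrays were the 2 lowest. The fit gave -0.58 (SE 0.11, adjusted p = 0.00151) in flight and -0.60 (SE 0.11, adjusted p = 0.00412) with osteoinductive medium. Parp9 read 8.79, 8.63, 8.48 and 7.92 in growth medium and 8.56, 8.54, 8.01 and 7.92 in osteoinductive medium. Parp9 was lower on all 4 flight arrays than on any ground-based array, and in microgravity it read 7.92 in both media. It differed by -0.55 (SE 0.11, adjusted p = 0.00249) in flight and by -0.20 (SE 0.09, adjusted p = 0.196) with osteoinductive medium. Dtx3l was -0.51 in flight (adjusted p = 0.00308), with its 4 flight arrays also below the 4 ground-based ones, and -0.18 with osteoinductive medium (adjusted p = 0.349).

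Gbp3 read 10.24, 10.19, 10.11 and 9.53 in growth medium and 9.37, 9.56, 8.35 and 8.25 in osteoinductive medium. Gbp3, a guanylate-binding GTPase that acts on intracellular pathogens, had its lowest values on the osteoinductive flight arrays. The log2 difference was -0.78 (SE 0.16, adjusted p = 0.00249) in flight and -1.13 (SE 0.14, adjusted p = 0.000265) with osteoinductive medium. Rtp4 read 10.41, 10.33, 10.31 and 9.79 in growth medium and 9.55, 9.69, 8.75 and 8.54 in osteoinductive medium. Rtp4, a receptor transporter induced by interferon, was higher on every growth array than on any osteoinductive array. The fit gave -0.65 (SE 0.14, adjusted p = 0.00438) in flight and -1.08 (SE 0.13, adjusted p = 0.000158) with osteoinductive medium. Ifi207 read 10.37, 10.13, 10.19 and 9.39 in growth medium and 10.34, 10.08, 10.36 and 9.80 in osteoinductive medium. Ifi207, a PYHIN family protein related to DNA sensors, was low on both microgravity arrays and not on the centrifuge. It differed by -0.30 (SE 0.17, adjusted p = 0.186) in flight and by 0.13 (SE 0.10, adjusted p = 0.448) with osteoinductive medium, neither of which passed. Xaf1, a promoter of cell death, was called with osteoinductive medium (-0.60, adjusted p = 0.00211) and not in flight (-0.32, adjusted p = 0.0582), and Ifi35 was called in flight (-0.43, adjusted p = 0.00591) and not with medium (-0.23, adjusted p = 0.175).

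Of 4 antigen processing genes, 3 were called lower in flight and 2 with osteoinductive medium, against 25.7% and 8.13% of all tested genes. Psmb8 read 8.64, 8.53, 8.09 and 7.93 in growth medium and 8.26, 8.52, 7.67 and 7.44 in osteoinductive medium. Psmb8, a catalytic subunit of the immunoproteasome, was lower on all 4 flight arrays than on any ground-based array, and it had the smallest adjusted p of the members in flight. Flight gave -0.70 (SE 0.10, adjusted p = 0.000189) and osteoinductive medium gave -0.32 (SE 0.10, adjusted p = 0.0397). The medium call of Psmb8 was lost without the filter on dim genes (adjusted over 19938 genes) and without any 1 of 6 arrays, those of the ground condition being the exceptions (-0.30 to -0.27). Tap1 read 9.51, 9.53, 9.22 and 8.92 in growth medium and 9.25, 9.33, 8.23 and 8.44 in osteoinductive medium. Tap1, which carries peptides into the endoplasmic reticulum, likewise had its 4 flight arrays below the 4 ground-based ones. The fit gave -0.70 (SE 0.11, adjusted p = 0.000591) in flight and -0.48 (SE 0.12, adjusted p = 0.0176) with osteoinductive medium, the medium call being lost without either centrifuge array (-0.31) or either microgravity array (-0.48).

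B2m read 13.09, 13.05, 13.09 and 12.88 in growth medium and 13.00, 13.01, 13.01 and 12.88 in osteoinductive medium. B2m, the light chain of the class I molecules that present the peptides, ranged from 12.88 to 13.09 over the 8 arrays. It differed by -0.07 (SE 0.08, adjusted p = 0.503) in flight and by -0.05 (SE 0.08, adjusted p = 0.735) with osteoinductive medium, and its sign in flight turned to 0.01 after quantile normalization. Psmb9, a further immunoproteasome subunit, was -0.27 in flight (adjusted p = 0.0333) and 0.00 (SE 0.09, adjusted p = 0.994) with osteoinductive medium.

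The difference between flight and ground-based arrays was next taken within each medium. In growth medium 4 of 37 members were called lower (Psmb8, Irf1, Ifih1 and Tap1), with a median of -0.37, against 5.79% of all tested genes. That median was -0.11 without growth microgravity, -0.61 without growth centrifuge and -0.27 after quantile normalization. In osteoinductive medium 30 of 37 were called lower, with a median of -0.73, against 11.7% of all tested genes. The test of the difference between these 2 values, the interaction, called 0 of 37 members in limma, where 12 had an unadjusted p under 0.05, and 0.0% of all tested genes. Of all 13205 tested genes, 525 had an unadjusted p under 0.05 in the interaction and 7753 were below 0. The interaction was below 0 for 34 of 37 members, with a median of -0.36 against -0.04 over all tested genes. The median was -0.14 without growth centrifuge and -0.61 without growth microgravity. The interaction value farthest from 0 was that of Ifit3, -1.59 (SE 0.32, adjusted p = 0.647).

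The growth result rested on single arrays. Leaving out an array changes the error of every gene, and the share of all tested genes in the same fits is not given. The counts that follow therefore describe how the fit depends on arrays and cannot be read as particular to the members. The count in growth medium was 32 without growth centrifuge and 0 without growth microgravity, growth laboratory or growth ground. It was 2 without any 1 of the 4 osteoinductive arrays. The interaction called 4 members without growth microgravity (Ifit3 -2.03, Bst2 -1.30, Gbp3 -1.05 and Ddx60 -0.98) and 0 without any other array. In osteoinductive medium the count was 17, 18, 14 and 15 without the centrifuge, microgravity, ground and laboratory array of that medium.

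In single steps between 2 arrays, which have no test, the 2 media differed in where the members dropped. In growth medium, centrifuge minus ground had a median of -0.08 over the 37 members, with 22 below 0, and microgravity minus centrifuge had -0.52, with 34 below 0. In osteoinductive medium the first step was -0.75, with 35 below 0, and the second -0.10, with 21 below 0. Over all tested genes these medians were -0.01 and -0.11 in growth medium and -0.06 and 0.00 in osteoinductive medium. The share of all tested genes below 0 was 51.3% and 62.6% in growth medium and 57.7% and 49.6% in osteoinductive medium. The members' median of ground minus laboratory was -0.06 in growth and 0.05 in osteoinductive medium. Ifit3 shows the pattern, with steps of 0.44 and -0.87 in growth medium and -1.76 and -0.11 in osteoinductive medium.

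**Figure D4:**
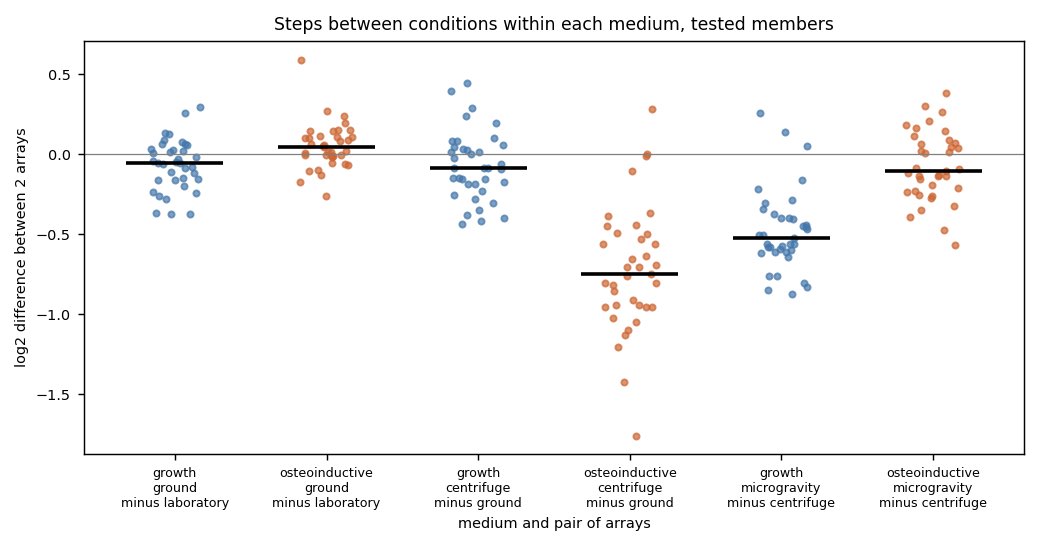
Log2 difference between 2 arrays of the same medium for each of the 37 tested members (points) with the median (line), for 3 steps in growth medium (blue) and osteoinductive medium (orange). In growth medium the low median is microgravity minus centrifuge at -0.52, and in osteoinductive medium it is centrifuge minus ground at -0.75.

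Fitted over both media, microgravity minus centrifuge, the comparison of gravity within flight, called 0 of 37 members in limma, where 12 had an unadjusted p under 0.05, and 0.0% of all tested genes. Of all 13205 tested genes, 1507 had an unadjusted p under 0.05 in this comparison and 8155 were below 0. The median of the members was -0.28 against -0.05 over all tested genes, and 36 of 37 were below 0. That median was -0.0032 without growth centrifuge and -0.58 without osteoinductive centrifuge, and with only the 4 arrays of these conditions 1 member was called. Microgravity minus ground called 32 of 37 lower (median -0.67) against 18.1% of all tested genes, and 6, 10 and 21 without osteoinductive ground, growth microgravity and osteoinductive microgravity. Centrifuge minus ground called 5 of 37 lower (Irf1, Psmb8, Tap1, Ifih1 and Parp14, median -0.43) against 3.78%. That count was 25 without growth centrifuge, 11 without either laboratory array, 9 without growth ground and 0 without osteoinductive centrifuge or osteoinductive ground, and 19 with only the 4 arrays compared. The median of centrifuge minus ground was -0.16 without osteoinductive centrifuge, -0.22 without osteoinductive ground and -0.67 without growth centrifuge. Ground minus laboratory called 0 of 37 in limma, with 0 at an unadjusted p under 0.05, and 0.0% of all tested genes. The median of ground minus laboratory was 0.02, and -0.15 to 0.16 with any 1 array left out. These comparisons share arrays (microgravity in 2 of them, ground in 3), so their values are not independent of each other. Their counts under other settings stand without the share of all tested genes in the same fits, so those swings cannot be read as particular to the members.

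The medium difference was called for 23 of 37 members among the flight arrays (median -0.73), against 5.56% of all tested genes, and for 8 of 37 on the ground-based arrays (median -0.39), against 0.295%. The flight median was -0.45 without growth centrifuge and -0.98 without growth microgravity. The 8 on the ground were Ifit3, Ifit3b, Ifit1, Rsad2, Ddx60, Herc6, Gbp3 and Rtp4. That count of 8 was 18 without growth centrifuge or growth microgravity, 4 without osteoinductive centrifuge or osteoinductive microgravity, 3 without growth ground or osteoinductive ground, 0 without either laboratory array, and 5 without the filter on dim genes. Here too the share of all tested genes in the altered fits is not given, so these swings cannot be read as particular to the members. Between single arrays, which have no test, the median of osteoinductive minus growth was -0.45 in laboratory, -0.33 in ground, -0.99 in centrifuge and -0.50 in microgravity, with 35, 36, 35 and 32 of 37 members below 0. Ifit3b had the lowest value in laboratory, -1.92, and Ifit3 in the other conditions, -1.17 in ground, -3.37 in centrifuge and -2.62 in microgravity.

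Counted by whether arrays overlapped, 5 of 37 members (Irf1, Psmb8, Tap1, Parp9 and Dtx3l) had all 4 flight arrays below all 4 ground-based arrays, against 16.2% of all tested genes, so the members did not stand above the background by this count. Within growth medium, 20 had both flight arrays below both ground-based arrays, against 35.1%, and within osteoinductive medium 34 did, against 45.5%, the exceptions being B2m, Ifi207 and Oasl1. All 4 osteoinductive arrays lay below all 4 growth arrays for 11 members (Ddx60, Irf7, Ifit1, Ifit2, Ifit3, Ifit3b, Rsad2, Oasl1, Usp18, Herc6 and Rtp4), against 3.57%. Both osteoinductive flight arrays lay below the other 6 arrays for 28 members, against 17.7%, a rule chosen after the values were seen.

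The members with and without an ISRE core before their start are described here without a test. The 13 tested members with a core had a median of -0.87 with osteoinductive medium (-2.20 to 0.13) and the 17 without one had -0.48 (-1.11 to 0.00). In flight the medians were -0.48 and -0.57. Of the 5 members whose flight and ground-based arrays did not overlap, the table held 4 (Irf1, Psmb8, Tap1 and Dtx3l), none with an ISRE core in this window, and Irf1 and Psmb8 held a GAS. Among all 33 members in the table, 15 held a core and 6 a GAS. With 4 genes, picked by their values, no difference from those rates can be read.

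Upstream of the members, few genes of the interferon signal itself were called. The shares over all tested genes were 25.7% lower and 12.7% higher in flight, and 8.13% lower and 6.42% higher with osteoinductive medium. Of 11 ligand genes 4 were tested, and Ifna5 was called higher in flight (0.29, adjusted p = 0.0324) while Ifna2, Ifng and Ifnl2 were not called. Ifnb1 lay below the filter. None of 5 tested receptor genes was called in flight, where 0 had an unadjusted p under 0.05, and with osteoinductive medium Ifngr1 (0.62) and Il10rb (0.37) were called higher. The type I receptor genes Ifnar1 and Ifnar2 gave 0.06 and -0.17 in flight and -0.03 and -0.04 with medium, none called. Of 8 tested kinases and factors 0 were called in flight, where 2 had an unadjusted p under 0.05, and Stat3 was called higher with medium (0.82).

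In the pathways that sense nucleic acids, 7 of 11 tested genes were called lower in flight (median -0.28) and 0 higher, among them Sting1, the adaptor of the DNA sensor cGAS, by -0.68, Trim25, which activates RIG-I, by -0.55, and the adaptor Myd88 by -0.44. With osteoinductive medium 1 of 11, Adar (-0.30), was called lower. Of 6 negative regulators 2 were called lower in flight, Ptpn2 (-0.42) and Ptpn11 (-0.35), and Ptpn2 also with medium (-0.48). Of all tested genes 25.7% were called lower in flight and 8.13% with osteoinductive medium, so 2 of 6 lay near the flight share. Of 52 further induced genes listed, 35 were tested, and 26 were called lower and 0 higher in flight, with a median of -0.45. With osteoinductive medium 14 were lower and 2 higher, with a median of -0.21. The chemokine Cxcl10 gave -0.92 in flight and -1.97 with medium, and Irgm1 gave -0.67 and -1.06. Tapbp, the chaperone of class I loading, gave -0.79 in flight and was not called with medium (-0.33). Ms4a4d (2.40) and Ly6e (0.37) were the 2 called higher with medium, and Ly6e was called lower in flight (-0.36). Of 7 class II genes 2 were tested and 0 were called in either comparison, with 0 at an unadjusted p under 0.05.

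As a description, the members' standardised profiles were averaged and every tested gene was correlated with that mean over the 8 arrays. Pearson's r was above 0.9 for 1328 of 13205 tested genes, or 10.1%, members included, although each member is itself a part of that mean. With the members left out of the ranking, the 10 genes most alike were Fip1l1 (r = 0.996), Usp39, AW209491, Ptpn2, Rpp40, Nop14, Gpr176, Pbp2, Ncl and Cyp7b1 (r = 0.993). Of these only Ptpn2 stands in a list used here. The points share the 8 arrays and their layout of media and conditions, and no p is given.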

How the data were processed

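Biotin-labelled RNA of the 8 samples was hybridised to 1 array each. The authors deposited linear intensities, and RMA and GCRMA are both named in the submitters' processing notes, without versions or which of them was used. The genome build was not given in the sources used here. Log2 of the deposited intensity was analysed with no further normalization, and the number of arrays limits the precision. Of 35557 probe sets, the platform annotation paired 21789 with 1 gene and 1621 with several, and left 12147 unnamed. The brightest single-gene probe set stood for a gene, and genes were tested if their mean passed the 40th percentile over probe sets (log2 7.14). limma 3.58.1 in R 4.3.3 (lmFit, eBayes) was used for all tests, two-sided, adjusted by Benjamini-Hochberg over 13205 genes. Flight was fitted with medium (5 residual degrees of freedom), conditions and media together (3), and the within-medium values and the interaction in a fit with both and their interaction (4). The code was tested on simulated data. Values of all 8 arrays are given for the 8 members with the smallest adjusted p in flight and in medium (the interaction called none) and for the 2 brightest of each role. The members and lists were chosen with earlier results of these data known. The alternatives tried were no filter, the 60th percentile as filter, quantile normalization, 32 added before log2, the mean of a gene's probe sets, a trended robust variance, no term for medium, only the arrays compared, and each array left out.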

Additional observations from a re-analysis of the deposited data

How the results depend on the processing

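No count or named member reversed its direction among called values under any alternative run. Of 983 recomputed values of single members, 919 kept their side of the threshold, 60 lost the call and 4 gained it. Of 163 recomputed medians 22 moved by more than the spread, here the SD over members of the ground minus laboratory difference. Of 163 recomputed counts 36 moved by over 1.5 times. Without the term for medium, where the difference between media enters the error, the members called were 9 in flight minus ground-based, 3 in microgravity minus ground and 0 in centrifuge minus ground. With only the 4 arrays compared they were 1 in microgravity minus centrifuge and 19 in centrifuge minus ground. Without the filter the count for osteoinductive minus growth on the ground was 5, and the cause was not tested. With 1 array left out, the counts ranged from 25 to 33 in flight, 22 to 25 for medium, 0 to 0 for microgravity minus centrifuge, 6 to 33 for microgravity minus ground, 0 to 25 for centrifuge minus ground, 0 to 0 for ground minus laboratory and 0 to 4 for the interaction. Within growth medium the flight count ranged from 0 to 32 and within osteoinductive medium from 14 to 33. The medium count ranged from 16 to 31 among flight arrays and from 0 to 18 on the ground. Where a condition was left with 1 array, that array was assumed to vary like the others. Shares of all tested genes under the same alternatives are not set beside these counts, so their swings cannot be read as particular to the members. Among named members, quantile normalization ended the flight calls of Ifit1 and Usp18, the robust variance both calls of Ifit3, and no filter the medium call of Psmb8. No paired analysis was possible by replicate number because the labels carry none, while the comparison of media, with condition as a term, set both media side by side within each condition. Genes under the filter level, such as Ifnb1 and Mx1, lie in the dimmest part of the signal range, which limits what can be read from them.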
